A study of Mus musculus with 18 samples.

Results

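Of the 2507 autosomal sites that the study listed as most variable in liver chromatin accessibility, 1057 had a peak in at least 2 and at most 5 of 7 inbred mouse strains, and these 1057 sites are described here. They were selected on the peak calls themselves, since a site was taken when a deposited peak of 2 to 5 inbred strains overlapped it by 1 bp or more. All 50775 sites of the union of the 7 lists include 50121 on autosomes, of which 31% had a peak in 2 to 5 strains. The remaining 14492 autosomal union sites called in 2 to 5 strains lay outside the variable list and are called the other sites below.

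The livers came from male mice of BXH2/TyJ, BXH19/TyJ, A/J, AKR/J, BALB/cJ, CBA/J, DBA/2J, C57BL/6J and C3H/HeJ. Mice of all 9 strains were 8 weeks old when they were put on high-fat, high-sucrose food (HF/HS), which they ate for 8 weeks, and 2 mice per strain gave 18 samples. BXH19/TyJ and BXH2/TyJ are recombinant inbred, so that their genomes are mosaics of C57BL/6J and C3H/HeJ. Each list merges both mice of a strain, so values per strain carry no replicate error, and whole liver does not separate hepatocytes from the other cells.

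FAIRE-seq recovers DNA that is free of nucleosomes from fixed tissue, so that promoters, enhancers and other accessible regions appear as peaks of reads. Sites that are open in some inbred strains and closed in others are candidates for regulatory differences between genomes, and a strain pattern shared by neighbouring sites can mark a stretch of chromosome with a common ancestry. Part of the mouse genome consists of transposable elements, which are copies of one another and are mostly silenced in adult tissues. A copy can be read as open or closed only as far as reads can be placed in it, and the study kept reads with a single location.

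The sequences below show what kinds of DNA carried the leading patterns. They are from mm9, 5′ to 3′ on the plus strand unless stated otherwise. The first lies just upstream of Plcb3 at chr19:7044592-7044891 and is among the GC-rich sites called in A/J and DBA/2J only of the inbred strains. It is not typical of them, since most lay away from gene starts and none of the others had a BXH19/TyJ peak. The second is the strongest of the run inside Sp110 at chr1:87485352-87485651, called in C57BL/6J and DBA/2J only of the inbred strains. The third lies in an intron of Slc2a2 at chr3:28624111-28624410, where C57BL/6J and BALB/cJ alone of the inbred strains had a peak. The next lies in an intron of Sfi1 at chr11:3056293-3056592, stands for a gene with 12 members, and has no other copy in the genome. The last lies between Lrpprc and Ppm1b at chr17:85273945-85274244, in a run that A/J and DBA/2J lacked. Capitals in it mark a match to a C/EBP motif (TTGCNNAA, read on the minus strand).
Plcb3 upstream: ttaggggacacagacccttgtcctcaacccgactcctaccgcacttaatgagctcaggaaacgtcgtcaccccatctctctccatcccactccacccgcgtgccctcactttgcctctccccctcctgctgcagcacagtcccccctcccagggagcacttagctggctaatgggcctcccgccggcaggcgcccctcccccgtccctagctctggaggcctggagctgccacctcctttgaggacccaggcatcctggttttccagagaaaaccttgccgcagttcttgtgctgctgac
Sp110 intron: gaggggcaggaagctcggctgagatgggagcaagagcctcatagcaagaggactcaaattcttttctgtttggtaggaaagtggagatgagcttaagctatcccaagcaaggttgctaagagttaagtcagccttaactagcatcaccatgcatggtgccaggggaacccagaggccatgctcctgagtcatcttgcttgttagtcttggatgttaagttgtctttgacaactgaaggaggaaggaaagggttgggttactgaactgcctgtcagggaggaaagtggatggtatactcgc
Slc2a2 intron: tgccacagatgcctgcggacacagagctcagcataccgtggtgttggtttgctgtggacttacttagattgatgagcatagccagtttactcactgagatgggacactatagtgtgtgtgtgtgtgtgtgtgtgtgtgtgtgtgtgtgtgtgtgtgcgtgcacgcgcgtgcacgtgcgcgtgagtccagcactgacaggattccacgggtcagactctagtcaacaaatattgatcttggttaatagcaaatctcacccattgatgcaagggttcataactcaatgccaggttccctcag
Sfi1 intron: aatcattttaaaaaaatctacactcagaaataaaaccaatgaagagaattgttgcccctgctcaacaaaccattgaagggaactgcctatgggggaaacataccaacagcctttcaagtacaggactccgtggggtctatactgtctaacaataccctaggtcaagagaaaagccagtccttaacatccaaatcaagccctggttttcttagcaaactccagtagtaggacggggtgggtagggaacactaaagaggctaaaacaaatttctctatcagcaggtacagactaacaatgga
Ppm1b upstream: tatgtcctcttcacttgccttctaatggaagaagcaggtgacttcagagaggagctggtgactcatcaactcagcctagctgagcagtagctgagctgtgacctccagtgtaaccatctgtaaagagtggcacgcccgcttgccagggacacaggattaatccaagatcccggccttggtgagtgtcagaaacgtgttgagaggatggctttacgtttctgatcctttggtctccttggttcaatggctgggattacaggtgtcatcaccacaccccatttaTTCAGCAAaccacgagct

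Another set is shown because pairs of distant members shared long stretches of sequence. Of the 1057 members, 53 on 17 chromosomes were linked by alignments of 150 bp or more at an identity of 90% or more. Each is named by its nearest gene start, which can be far away. The Vstm2a member at chr11:15631713-15632012 (plus strand), 525864 bp from that start, shared the stretches in capitals with the Mup9 member at chr4:60388209-60388486 (minus strand), 46457 bp away. The Dap member at chr15:31003538-31003837 and the Msl3l2 member at chr10:55752811-55753016, both on the plus strand and 150452 and 73809 bp from those starts, shared other stretches. Capitals mark every word of 20 bases that recurs in another of the 5 strongest members of the group, 160 bases in the first pair and 137 bases in the second. No word was shared between the pairs, and the remaining one of the 5, the Nbea member, shared none and is not printed. The group is thus linked by alignments between pairs of members, and its strongest members do not all hold 1 sequence.
Vstm2a member: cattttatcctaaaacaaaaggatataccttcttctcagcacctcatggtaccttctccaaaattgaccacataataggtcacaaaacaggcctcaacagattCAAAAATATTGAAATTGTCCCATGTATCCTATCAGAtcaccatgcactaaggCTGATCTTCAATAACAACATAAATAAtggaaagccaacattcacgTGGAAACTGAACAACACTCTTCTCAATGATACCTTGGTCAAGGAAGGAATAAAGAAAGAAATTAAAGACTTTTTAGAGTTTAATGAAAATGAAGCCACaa
Mup9 member: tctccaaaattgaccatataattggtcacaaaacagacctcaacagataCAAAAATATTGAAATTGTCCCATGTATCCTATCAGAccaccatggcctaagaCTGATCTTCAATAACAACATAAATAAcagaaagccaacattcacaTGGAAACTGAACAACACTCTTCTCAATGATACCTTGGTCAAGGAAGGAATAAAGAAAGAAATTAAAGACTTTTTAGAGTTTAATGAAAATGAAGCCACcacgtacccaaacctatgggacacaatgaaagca
Dap member: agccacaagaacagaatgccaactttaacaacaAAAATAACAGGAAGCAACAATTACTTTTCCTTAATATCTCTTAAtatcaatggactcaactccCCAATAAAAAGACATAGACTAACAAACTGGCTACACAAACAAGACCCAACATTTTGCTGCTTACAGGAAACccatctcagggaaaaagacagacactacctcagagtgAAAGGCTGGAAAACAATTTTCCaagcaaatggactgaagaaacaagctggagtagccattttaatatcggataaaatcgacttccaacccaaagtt
Msl3l2 member: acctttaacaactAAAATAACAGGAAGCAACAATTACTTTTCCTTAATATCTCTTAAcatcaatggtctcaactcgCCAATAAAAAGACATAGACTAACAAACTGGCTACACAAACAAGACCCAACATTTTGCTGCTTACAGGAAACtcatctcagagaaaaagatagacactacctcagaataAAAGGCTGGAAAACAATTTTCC

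The limits of the selection divide a gradual scale. Among autosomal variable sites, 1060 were called in 1 strain and 362 in 2, with median signal percentiles of 27.1 and 34.5. At the other limit, 207 sites were called in 5 strains and 206 in 6, with median percentiles of 52.5 and 58.1. The percentile of a peak is its rank by the authors' F-seq score within the list of its strain, from 0 for the weakest to 100 for the strongest. Members had a median width of 500 bp and a median percentile of 42.8, beside 417 bp and 23.7 for the other sites.

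A few combinations of strains held a large share of the members. Of the 112 possible combinations of 2 to 5 strains, 104 occurred among members and 112 among the other sites. The 5 most frequent held 235 members, or 22.2%, beside 5.85% of the other sites, and all 5 included DBA/2J. At the other end, 39 combinations had 1 to 5 members each and 118 members together. Since the lists chose the members, these shares are a description with no test.

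A/J with DBA/2J was the most frequent combination, with 86 members or 8.14% (95% Clopper-Pearson interval 6.56 to 9.95), beside 2.75% of the other sites. The combination of A/J, C57BL/6J and DBA/2J followed with 47 members (4.45%, 3.29 to 5.87), beside 0.621% of the other sites. C57BL/6J with DBA/2J had 39 members (3.69%), beside 2.23%. The next 2 combinations were rare elsewhere. The 5 strains other than BALB/cJ and C3H/HeJ had 33 members (3.12%), beside 0.138% of the other sites. The 4 strains other than BALB/cJ, C3H/HeJ and CBA/J had 30 (2.84%), beside 0.117%. Sixth was BALB/cJ with C57BL/6J, with 28 members (2.65%) beside 2.06%.

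The converse order held for a combination that led among the other sites. The 5 strains other than A/J and DBA/2J, the exact opposite of the leading pair, had 26 members (2.46%) and 7.56% of the other sites. A/J with C3H/HeJ, A/J with C57BL/6J, and AKR/J with BALB/cJ and C57BL/6J had 26 members each, beside 3.35%, 1.11% and 0.959% of the other sites. The wider pattern of a peak in A/J and DBA/2J but in neither BALB/cJ nor C3H/HeJ took in 212 members or 20.1%, beside 4.25% of the other sites.

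**Figure D1:**
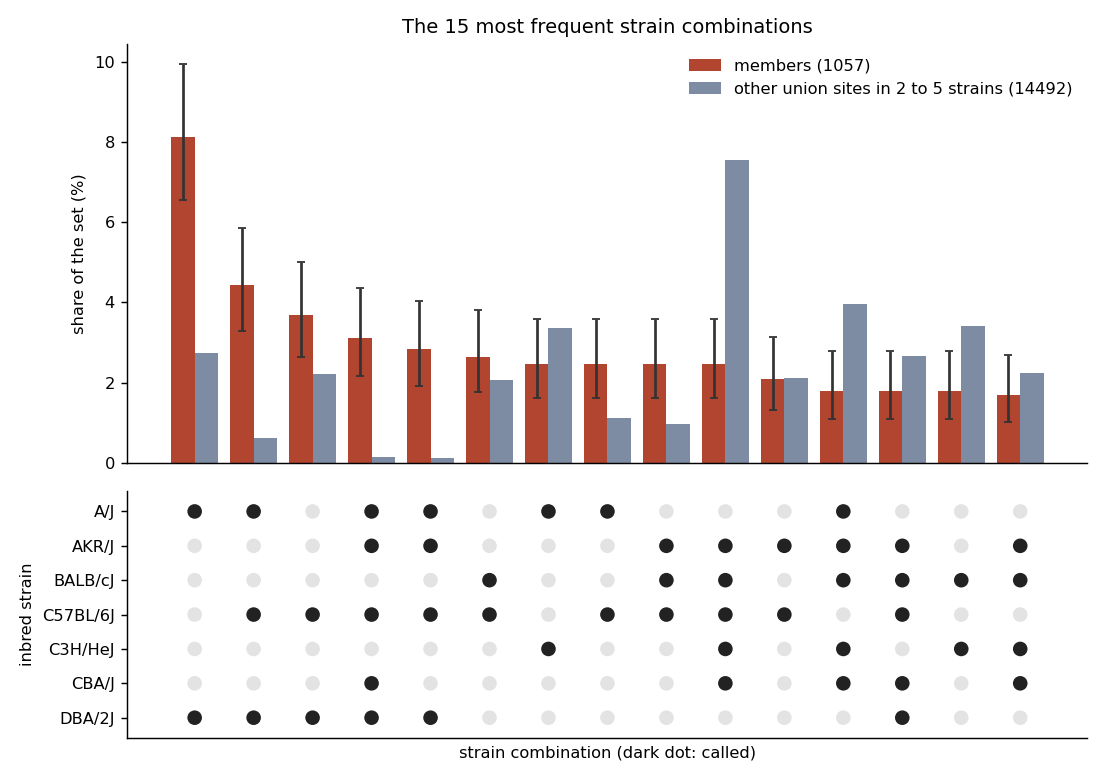
Share of members (red, n = 1057, with 95% Clopper-Pearson intervals) and of the other union sites in 2 to 5 strains (grey-blue, n = 14492) for the 15 most frequent combinations, with dark dots for the called strains in the lower panel. A/J with DBA/2J stands first at 8.14% of members, and the combinations of 5 and 4 strains that lack BALB/cJ and C3H/HeJ reach 3.12% and 2.84% of members beside 0.138% and 0.117% of the other sites.

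Strains differed in how often they were called. C57BL/6J had a peak at 621 members (58.8%), A/J at 547 (51.8%) and DBA/2J at 507 (48.0%), beside 51.0%, 31.5% and 29.8% of the other sites. The 4 remaining inbred strains were each called at 40.9% to 43.7% of members, beside 44.9% (AKR/J) to 61.7% (CBA/J) of the other sites. C3H/HeJ and CBA/J were the pair most alike, in the same state at 68.6% of members, beside 56.7% of the other sites. BALB/cJ and DBA/2J were the least alike, in the same state at 35.2% of members and 40.4% of the other sites.

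Sites with the leading combination were GC-rich and mostly away from gene starts. At the 86 members called in A/J and DBA/2J only, the median GC content was 59.9% and the median width 756 bp, and 8 sites (9.30%) lay within 1 kb of the start of a protein-coding transcript. The strongest with a named gene nearby overlapped an exon of Alad, which encodes an enzyme of haem synthesis, 5736 bp into the gene (chr4:62174887-62175496). Its signal percentile was 54.6 in A/J, 68.5 in DBA/2J and 38.7 in BXH2/TyJ, with no peak in the other 6 strains. A site in an intron of Fhad1 followed, with percentiles of 49.3 in A/J, 68.3 in DBA/2J and 65.4 in BXH2/TyJ. The third, printed above, lay 463 bp upstream of Plcb3, a phospholipase C gene. There A/J stood at 62.2, DBA/2J at 51.7, BXH2/TyJ at 25.3 and BXH19/TyJ at 0.3, which is at the bottom of its list.

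Combinations that add C57BL/6J held sites of other kinds. For A/J, C57BL/6J and DBA/2J the leading site lay in an intron of Sp110, an interferon-induced nuclear body gene, at percentiles of 28.3, 75.8 and 90.2 in these strains and 75.2 in BXH2/TyJ. The next was 10858 bp upstream of Ugt2b37, a gene of the UDP-glucuronosyltransferases, which attach glucuronic acid to drugs and bilirubin. It had percentiles of 37.9, 57.2 and 83.1 in A/J, C57BL/6J and DBA/2J and no peak in BXH2/TyJ or BXH19/TyJ. This 229 bp site had 37037 further alignments of at least 90% identity over 150 bp elsewhere in mm9, so it is repeated sequence. The third, in an intron of Heatr7b1, had no further copy and stood at 52.2, 63.3 and 60.7 in the same 3 strains and at 73.1 in BXH2/TyJ.

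Of the sites called in C57BL/6J and DBA/2J only, the strongest lay in an intron of the gene model A530032D15Rik, with percentiles of 78.95 in C57BL/6J, 90.7 in DBA/2J and 56.8 in BXH2/TyJ. It has no named symbol, so the rule for named sites passed it over, and it was added after its values were seen. The named sites lay at Sp110, H2-Q6 and Sp140. The Sp110 intron printed above reached percentiles of 79.4 in C57BL/6J, 86.6 in DBA/2J and 59.9 in BXH2/TyJ. A site 69 bp upstream of H2-Q6, a class I gene of the major histocompatibility complex, stood at 76.2 in C57BL/6J, 87.5 in DBA/2J and 81.9 in BXH19/TyJ, with no peak in BXH2/TyJ. The recombinant strains were thus called in opposite ways at these 2 loci. Near Sp140, a relative of Sp110, a site had 67.9, 68.3 and 48.2 in C57BL/6J, DBA/2J and BXH2/TyJ. Parts of this site had 24787 further alignments by the limits given above.

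The named sites of 4 and 5 strains with C57BL/6J and DBA/2J lay at genes of several kinds. Beyond the Sfi1 sites described below, a site 25940 bp from the start of Ly6c2, a surface protein of monocytes, stood at 90.3 in DBA/2J, 86.4 in C57BL/6J, 73.6 in A/J, 53.6 in AKR/J and 24.5 in BXH2/TyJ. A site 46457 bp from the start of Mup9, of the major urinary proteins that the liver secretes, stood at 91.5, 77.1, 56.9 and 53.0 in the same 4 inbred strains and at 65.5 in BXH2/TyJ. In an intron of Acot11, an acyl-CoA thioesterase gene, a site with no further copy had 74.97 in DBA/2J, 73.5 in AKR/J, 69.8 in C57BL/6J, 56.3 in A/J and 18.5 in CBA/J. Neither recombinant strain had a peak there.

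BALB/cJ with C57BL/6J was led by a metabolic gene. The Slc2a2 intron printed above lies 27436 bp inside the gene, which encodes the main glucose transporter of hepatocytes, and had percentiles of 71.1 in BALB/cJ, 59.9 in C57BL/6J and 72.8 in BXH19/TyJ. A site in an intron of Rcbtb2 followed with 45.4 in BALB/cJ and 78.4 in C57BL/6J, and neither recombinant strain was called. The third, 17982 bp from the start of Capg, an actin-capping protein gene, had 65.4 in BALB/cJ, 49.5 in C57BL/6J and 59.9 in BXH19/TyJ. BXH2/TyJ had no peak at any of these 3 sites, although it was called at 10 of the 28 members of the combination and BXH19/TyJ at 12.

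**Figure D2:**
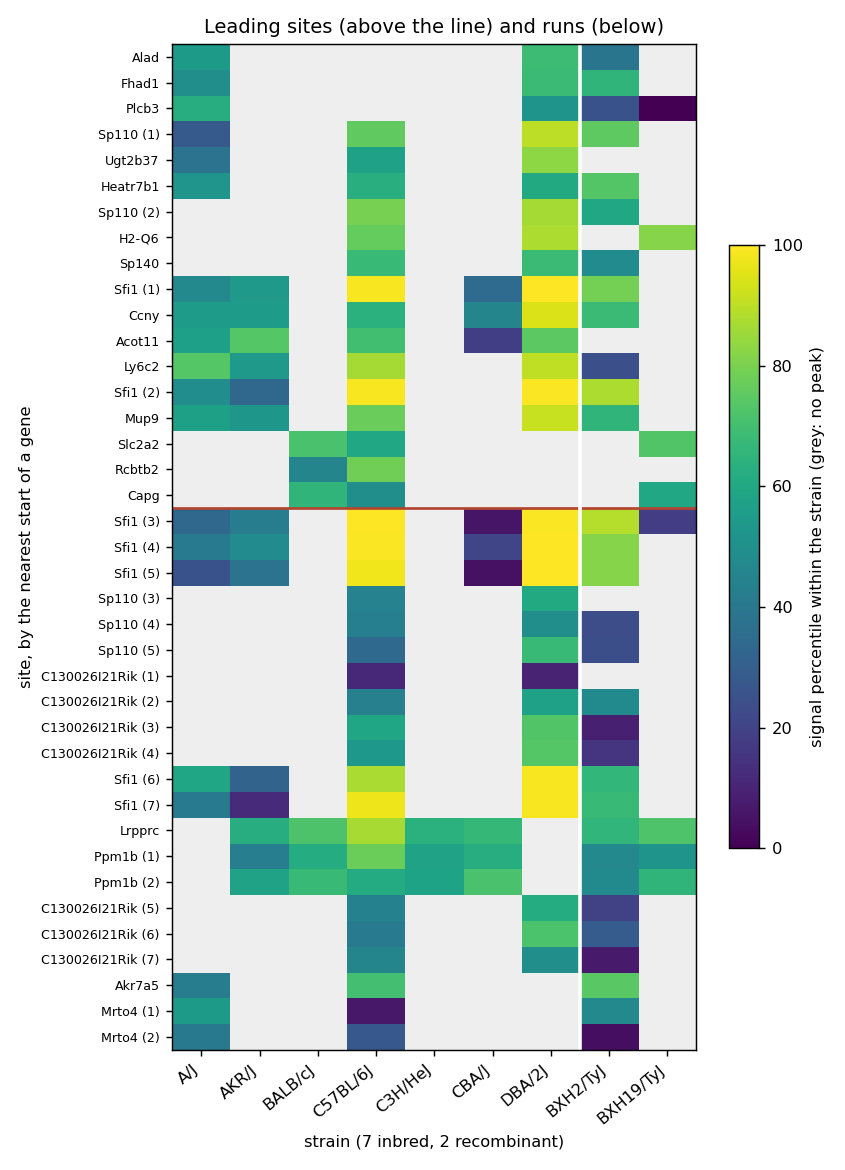
Signal percentile within each strain (colour, 0 to 100; grey where no peak was called) for the 3 leading sites of each of the 6 most frequent combinations, above the line, and for further sites of runs of 3 or 4 members, below it. In the Sfi1 rows C57BL/6J and DBA/2J stand between 87.2 and 99.8, and BXH19/TyJ is coloured in 1 of them, at 18.2.

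GC content moved with the calls of single strains. With the members divided into 3 classes by GC content, A/J was called at 88.9% of the 352 with the highest GC content (85.2 to 92.0) and at 36.0% of the 353 with the lowest (31.0 to 41.2). C57BL/6J went the other way, with 36.6% and 71.7%. The same contrast was present at the other sites within these limits of GC content, with 85.2% and 5.80% for A/J and 23.8% and 66.6% for C57BL/6J. Members called in A/J had a median GC content of 57.1%, beside 50.1% for members not called in A/J. The part of GC content in the strain combinations was not tested.

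Over all members the median GC content was 52.4% (quartiles 48.0 and 58.0). It was 62.4% at variable sites called in 1 strain, 52.9% at those called in 6 or 7, 51.8% at the other sites and 54.1% over all autosomal union sites. A transcript start lay within 1 kb of 181 members, or 17.1% (14.9 to 19.5), beside 30.5% of the variable sites in 1 strain, 32.1% of those in 6 or 7 strains and 14.5% of the other sites. Within 5 kb the order turned, with 31.1% of members and 31.5% of the other sites. By their midpoints, 448 members were intergenic, 420 intronic and 189 exonic. The combinations with the lowest GC content were the 5 strains other than BALB/cJ and C3H/HeJ at a median of 39.2%, and the same set without CBA/J at 41.1%.

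Repeated sequence was frequent among the variable sites, and the interval at 6 or 7 strains (17.6 to 26.0) overlapped that of the members. The other sites were not searched as a set. A further alignment of at least 90% identity over at least 150 bp existed for 263 members or 24.9% (22.3 to 27.6), beside 15.1% of variable sites in 1 strain, 21.5% of those in 6 or 7 strains and 4.35% of the common sites. Of the members, 131 had at least 100 such alignments, each of which can cover only a part of the site. Among themselves, 143 members fell into 23 groups of linked alignments, the largest with 53, 30 and 12 members. The study draws 1 member of the largest group, on chromosome 1, inside an L1Md_T element, a family of young LINE-1 retrotransposons, and the other members were not matched to an annotation of repeats here.

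The largest group had a sharp strain pattern, although its members sit on 17 chromosomes. Peaks of DBA/2J and of A/J overlapped 48 of its 53 members each, those of AKR/J 39, of C57BL/6J 37, of CBA/J 20, of BALB/cJ 1 and of C3H/HeJ 0 (upper 95% limit 6.72%). The highest signals were in DBA/2J, with a median percentile of 78.9, beside 49.4 in C57BL/6J, 47.2 in A/J and 35.5 in AKR/J. None of the 53 lay within 1 kb of a transcript start, 9 lay inside a gene, and the median GC content was 37.9%. The second group of 30 members on 12 chromosomes repeated the pattern, with 27 called in DBA/2J, 27 in A/J, 21 in C57BL/6J, 18 in AKR/J, 9 in CBA/J and 0 in BALB/cJ and in C3H/HeJ.

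The strongest member of the largest group, at chr11:15631684-15632041 between genes, stood at percentiles of 98.8 in DBA/2J, 96.2 in C57BL/6J, 79.0 in AKR/J, 73.2 in A/J and 50.5 in CBA/J. BXH2/TyJ had 84.0 and BXH19/TyJ 12.4 at this site. Nbea, a gene for vesicle traffic in neurons, and Dap were the nearest genes of 2 further members, which stood at 90.9 and 92.2 in DBA/2J and at 46.9 and 29.8 in CBA/J. Without the members that had another copy, the 33 members of the 5 strains other than BALB/cJ and C3H/HeJ came down to 3, and the 86 of A/J with DBA/2J to 59, which stayed the most frequent combination.

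**Figure D3:**
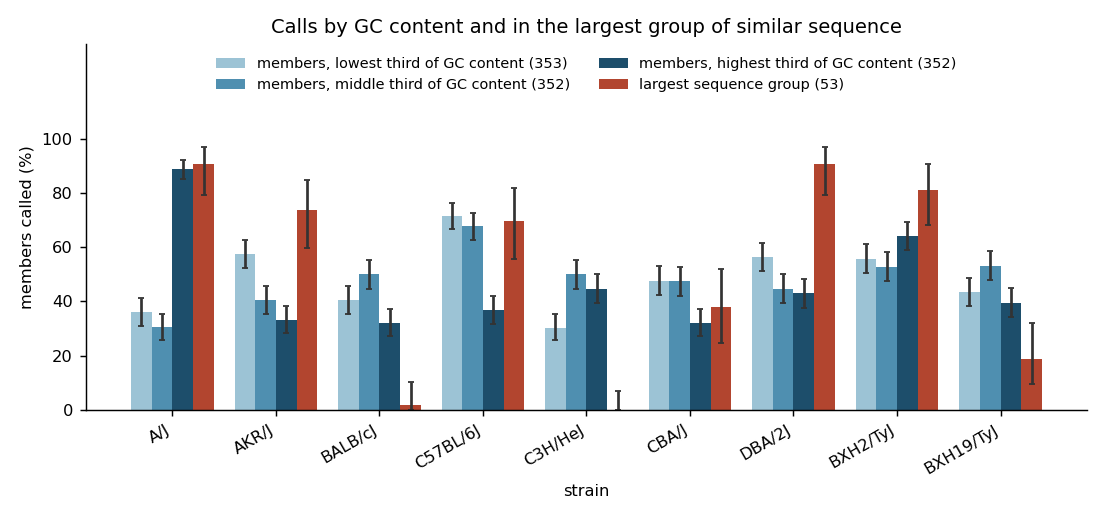
Share of members called in each of the 9 strains, for 3 classes of the members by GC content (blue, light to dark) and for the largest group of similar sequence (red, n = 53), with 95% Clopper-Pearson intervals. A/J is called at 88.9% of the class of highest GC content, and the red bars reach 90.6% in A/J and DBA/2J but 0 in C3H/HeJ and 1.89% in BALB/cJ.

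Neighbouring members often had the same combination. Among pairs of adjacent members less than 100 kb apart, 53 of 259 (20.5%, 15.7 to 25.9) shared the exact combination, beside 4.07% of such pairs of the other sites. The frequencies of the combinations alone would give 2.14%. The share was 34.3% under 10 kb, 10.6% from 10 to 100 kb, 8.09% from 100 kb to 1 Mb and 3.23% beyond. Among members with no other copy it was 15 of 50 pairs under 10 kb and 8.74% from 10 to 100 kb, so that 15.7% of pairs under 100 kb agreed.

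**Figure D4:**
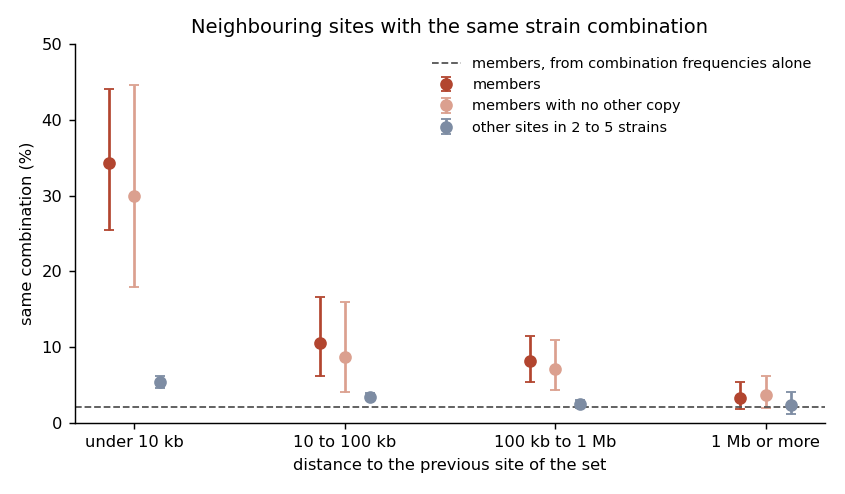
Share of adjacent sites with the same strain combination by distance, for members (red), members with no other copy (pale red) and the other sites (grey-blue), with 95% Clopper-Pearson intervals; the dashed line is the 2.14% given by the combination frequencies of the members. The share at members falls with distance, from 34.3% under 10 kb to 3.23% at 1 Mb or more.

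In all, 96 members stood in 43 runs of adjacent members with the same combination and gaps of at most 100 kb. Of these runs 36 had 2 members, 4 had 3 and 3 had 4. The 7 longer runs lay at only 5 places of the genome, since Sfi1 and the C130026I21Rik locus held 2 runs each. All 7 included C57BL/6J, and 6 of them were absent from C3H/HeJ.

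At Sfi1 on chromosome 11, which encodes a spindle-assembly protein that binds centrin, 12 members lay inside the gene or within 10 kb of it. All 12 had a peak in C57BL/6J and DBA/2J, 9 in A/J, 9 in AKR/J, 5 in CBA/J and none in BALB/cJ or C3H/HeJ. BXH2/TyJ had 11 of the 12 and BXH19/TyJ 1. A first run of 4, at chr11:3038181-3059203, was called in all inbred strains other than BALB/cJ and C3H/HeJ, and a second of 3, at chr11:3078818-3086457, in the same strains without CBA/J. In the first run C57BL/6J stood at percentiles of 99.0, 99.6, 99.3 and 97.7 and DBA/2J at 99.8, 99.6, 99.7 and 99.7. A/J was far lower, at 47.2, 33.5, 40.8 and 25.2, and CBA/J at 34.96, 5.8, 21.0 and 4.4. Of the 12 members 8 had a further copy in mm9.

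At Sp110 on chromosome 1 a run of 4 members covered 8005 bp (chr1:87479432-87487436). From the first to the last, C57BL/6J had percentiles of 44.2, 43.2, 79.4 and 34.1 and DBA/2J 60.9, 49.5, 86.6 and 67.4. BXH2/TyJ had a peak at the last 3, at 23.4, 59.9 and 23.8, and BXH19/TyJ at none. All 4 had another copy, with 3, 1, 1 and 105 alignments. Including Sp140, the stretch held 8 members, all called in C57BL/6J and DBA/2J.

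Elsewhere on chromosome 1, at the gene model C130026I21Rik, 14 members lay within a stretch of 250015 bp. All 14 had a peak in DBA/2J, 13 in C57BL/6J, 5 in A/J, 1 in BALB/cJ, 1 in C3H/HeJ and none in AKR/J or CBA/J. BXH2/TyJ had 10 and BXH19/TyJ 1. Both runs there, of 4 and 3 members, were called in C57BL/6J and DBA/2J only of the inbred strains. The first reached percentiles of 11.2, 43.6, 58.9 and 53.5 in C57BL/6J and 9.7, 57.4, 72.9 and 73.6 in DBA/2J. All 14 members had a further copy.

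Another dense stretch held 14 members at chr8:19685074-19776423, over the gene models Gm6483 and 4930467E23Rik, with 8 combinations among them. All 14 had a peak in DBA/2J, 13 in A/J, 10 in C57BL/6J, 7 in AKR/J, 7 in CBA/J, 1 in C3H/HeJ and 0 in BALB/cJ. BXH2/TyJ had 13 and BXH19/TyJ 4, and all 14 had a further copy. At Dux on chromosome 10, a homeobox gene of the early embryo that lies in an array of repeats, 5 members within 8266 bp were called in C57BL/6J and DBA/2J at all 5, in A/J at 4, in AKR/J at 3 and in C3H/HeJ at 1. BXH2/TyJ had 4 of these and BXH19/TyJ 0.

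The remaining runs differed in kind. At chr17:85264494-85274777, between Lrpprc and Ppm1b, 3 members with no other copy were missing in A/J and DBA/2J and called in every other strain, both recombinant strains included. At the first of them C57BL/6J stood at 86.9, BALB/cJ at 72.0, CBA/J and C3H/HeJ at 66.5 and 64.0, and AKR/J at 62.5, with 72.4 in BXH19/TyJ and 65.8 in BXH2/TyJ. At chr4:138886331-138902291, near Akr7a5 and Mrto4, 3 members were called in A/J, C57BL/6J and BXH2/TyJ. The first of them had 42.5, 69.9 and 74.3 in these 3 strains, and parts of it had 37992 further alignments.

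At the major histocompatibility complex on chromosome 17, the strain pattern changed from site to site. Within 119542 bp around H2-Q2, H2-Q4, H2-Q6 and H2-Q7, class I genes, 7 members had 6 combinations. Peaks were found at 6 in A/J, 6 in C57BL/6J and 4 in DBA/2J, and at 1 in each of the other 4 inbred strains. Here BXH19/TyJ had a peak at 5 and BXH2/TyJ at 1. In H2-Q7 a site 131 bp past the start stood at 59.3 in A/J, 52.6 in BALB/cJ, 65.2 in C57BL/6J, 56.3 in DBA/2J and 80.3 in BXH19/TyJ. Of the 7 members, 6 had a further copy in mm9, and the one at H2-Q2 had none. Whether reads were placed on the wrong copy was not tested.

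The lists of BXH2/TyJ and BXH19/TyJ were not used to choose the members. BXH2/TyJ had a peak at 609 members (57.6%, 54.6 to 60.6), beside 45.1% of the other sites. BXH19/TyJ had one at 479 (45.3%, 42.3 to 48.4), beside 51.2%. Both strains were called at 343 members, BXH2/TyJ alone at 266 and BXH19/TyJ alone at 136. Where both parents had a peak (224 members), BXH2/TyJ was called at 83.0% and BXH19/TyJ at 84.4%.

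At the 613 members called in only 1 parent, the recombinant strains leaned to opposite sides. BXH2/TyJ was called at 245 of the 397 members with a peak in C57BL/6J and not C3H/HeJ (61.7%, 56.7 to 66.5) and at 97 of the 216 with the reverse (44.9%, 38.2 to 51.8). The difference was 16.8 percentage points (Fisher's exact test, two-sided, adjusted p = 0.000118). BXH19/TyJ was called at 129 of the 397 (32.5%, 27.9 to 37.3) and at 112 of the 216 (51.9%, 45.0 to 58.7), a difference of -19.4 points (Fisher's exact test, adjusted p = 6.83e-06). At the other sites BXH2/TyJ was called at 36.2% of 3767 sites of C57BL/6J and not C3H/HeJ and at 47.4% of 4751 with the reverse. BXH19/TyJ was called there at 42.7% and 50.5%. The lean of BXH2/TyJ was thus reversed at the other sites, and that of BXH19/TyJ kept its direction. All tests between these parental classes were two-sided, and p-values were adjusted over 15 tests by the Benjamini-Hochberg method.

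Each parent's sites were then set against members called in neither parent, of which there were 220. In BXH2/TyJ the share at C57BL/6J-only members was above the 36.8% at members of neither parent (Fisher's exact test, adjusted p = 6.87e-09). For C3H/HeJ-only members the difference of 8.09 points was not called by the exact test (adjusted p = 0.113), and the intervals of the 2 shares, 38.2 to 51.8 and 30.4 to 43.6, overlapped. In BXH19/TyJ both were above the 22.3% at members of neither parent, by 10.2 points for C57BL/6J-only members (adjusted p = 0.00904) and 29.6 points for C3H/HeJ-only members (Fisher's exact test, adjusted p = 4.47e-10). Members of either parent alone were called less often than members of both parents in both strains, with differences of -21.3 to -51.9 points and a largest adjusted p of 2.91e-08 over the 4 Fisher's exact tests.

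Set against each other at the same members, the recombinant strains differed where C57BL/6J alone of the parents was called. There BXH2/TyJ alone had the peak at 160 members and BXH19/TyJ alone at 44 (exact binomial test, adjusted p = 5.64e-16). At C3H/HeJ-only members the counts were 34 and 49 (exact binomial test, adjusted p = 0.133), and at members of both parents 24 and 27 (adjusted p = 0.78). At members of neither parent they were 48 and 16 (exact binomial test, adjusted p = 0.000116). The study reports fewer filtered reads for each BXH19/TyJ replicate than for either BXH2/TyJ replicate. The part of read depth in these counts was not tested. Among members with a peak in 1 recombinant strain, BXH2/TyJ had 78.4% of those called in C57BL/6J only and 41.0% of those called in C3H/HeJ only (Fisher's exact test, adjusted p = 5.4e-09).

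**Figure D5:**
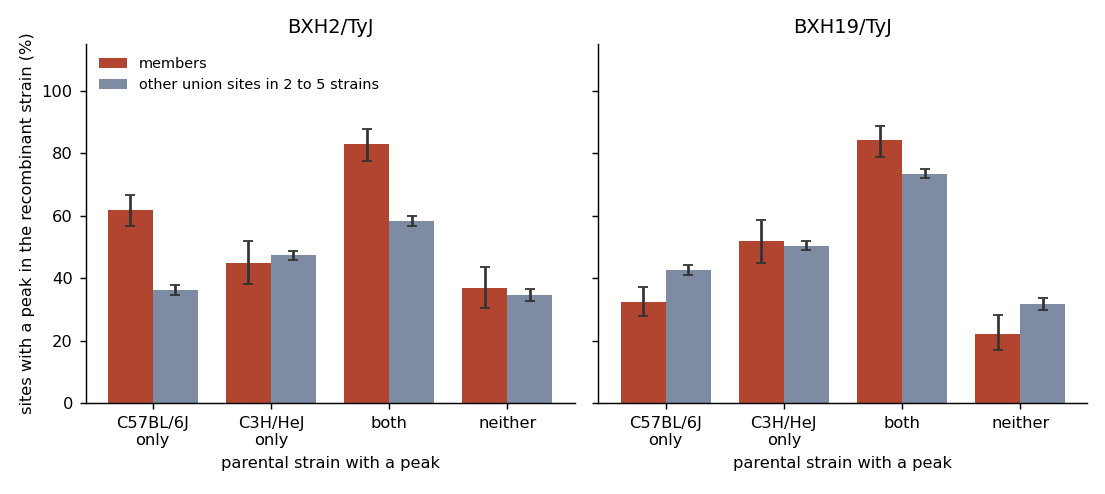
Share of sites with a peak in BXH2/TyJ (left) and BXH19/TyJ (right) by the parental strain with a peak, for members (red) and the other sites (grey-blue), with 95% Clopper-Pearson intervals. At members of C57BL/6J only, BXH2/TyJ reaches 61.7% and BXH19/TyJ 32.5%, beside 36.2% and 42.7% at the other sites.

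These differences were smaller among members without repeated sequence. In the largest group, C57BL/6J had a peak at 37 members and C3H/HeJ at none, and of these 37 BXH2/TyJ had 34 and BXH19/TyJ 7. Among members with no other copy, BXH2/TyJ was called at 52.1% of C57BL/6J-only members and 42.3% of C3H/HeJ-only members, a difference of 9.81 points that missed the 0.05 threshold (adjusted p = 0.0553 by Fisher's exact test). BXH19/TyJ was called at 38.1% and 51.3% of them (Fisher's exact test, adjusted p = 0.00926). At C57BL/6J-only members the 2 strains differed by 29.2 points, and by 14.0 points without repeated sequence (exact binomial test, adjusted p = 0.00147). Neighbouring members are not independent, each recombinant strain is 1 list, and the tests therefore compare these lists over sites and not strains over mice. With 1 member per 1 Mb the differences between the parents' members were 18.8 points in BXH2/TyJ (Fisher's exact test, adjusted p = 0.00145) and -13.3 points in BXH19/TyJ (adjusted p = 0.0265). The C57BL/6J-only members then had a peak in BXH2/TyJ alone at 91 and in BXH19/TyJ alone at 27 (exact binomial test, adjusted p = 1.01e-08). In lists of the 20000 strongest peaks the difference in BXH2/TyJ was 29.55 points.

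BXH2/TyJ was also called more often at the leading combination, where no parent was called. At members called in A/J and DBA/2J only, BXH2/TyJ had 26 of 86 and BXH19/TyJ 1 of 86. At the other sites with this combination the shares were 32.4% in BXH2/TyJ and 2.51% in BXH19/TyJ. At the 30 members of the 4 strains other than BALB/cJ, C3H/HeJ and CBA/J they were 86.7% and 10%, beside 88.2% and 41.2% of the 17 other sites. In contrast, for AKR/J, BALB/cJ and C57BL/6J BXH2/TyJ had 12 of 26 and BXH19/TyJ 14 of 26. Calls of the recombinant strains also moved with GC content. In the class of highest GC content, BXH2/TyJ had 64.2% of members and BXH19/TyJ 39.5%, beside 61.1% and 42.0% of the other sites. In the lowest class they had 55.8% and 43.3% of members, beside 32.5% and 58.1%. The median GC content was 59.9% at A/J with DBA/2J and 50% at C57BL/6J-only members. Its part in these differences was not tested.

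Along chromosomes, adjacent members called in 1 parent tended to carry the state of the same parent. In pairs less than 100 kb apart, both members had the state of the same parent in 76.7% of 129 pairs in BXH2/TyJ and 79.1% in BXH19/TyJ, beside 51.8% and 52.9% from frequencies alone. From 100 kb to 1 Mb the shares were 53.4% and 58.9%. The longest unbroken stretch was in BXH19/TyJ, with 24 members in a row in the C3H/HeJ state at chr1:78646288-90155280, the segment that holds Sp110. Of these 24, C57BL/6J was called at 23 and BXH19/TyJ at 1. The segment spans the 14 members at C130026I21Rik, all with a further copy, and the 8 at Sp110 and Sp140, 7 of them with one. In BXH2/TyJ the longest had 15 members in the C57BL/6J state at chr8:15719056-19976306, all called in both strains. It spans the dense stretch of 14 members at chr8:19685074-19776423 and another of 7 at chr8:19917089-19976306, all with a further copy. Members close together at repeated loci thus lie in both segments. No genotypes were used, so these states are peak calls, not inherited alleles.

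Individual members called in 1 parent reached high signals in the recombinant strains. The strongest C57BL/6J-only site in BXH19/TyJ belonged to F12, the gene of coagulation factor XII, and lay 2663 bp upstream of it. It stood at 95.9 in C57BL/6J, 94.0 in AKR/J and 83.1 in DBA/2J, with 89.97 in BXH19/TyJ and 83.6 in BXH2/TyJ and no peak in the other 4 strains. At Ank2, an ankyrin gene, a site called in AKR/J (79.0) and C57BL/6J (95.1) only stood at 85.5 in BXH19/TyJ and 73.4 in BXH2/TyJ. The strongest C57BL/6J-only peak in BXH2/TyJ, at 99.7, was near Gm15319, and parts of its site had 73693 further alignments.

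Among C3H/HeJ-only members, a site 68 bp into Plod1, a collagen-modifying enzyme, stood at 93.7 in BXH2/TyJ and 75.7 in BXH19/TyJ but at 3.6 in C3H/HeJ. It reached 86.8 in A/J and 82.4 in CBA/J. A low parental percentile recurred at Tbl1xr1, with 90.5 in BXH2/TyJ beside 21.4 in C3H/HeJ, and at Smad5, a mediator of BMP signalling, with 89.6 beside 6.0. At Tfpi, which encodes an inhibitor of coagulation, a site 29747 bp upstream was strong in the parent, with 83.0 in BXH19/TyJ, 99.8 in C3H/HeJ and 72.2 in CBA/J, and absent from BXH2/TyJ. Parts of this site had 754 further alignments.

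Genes of liver function were near a small number of members. Of 574 listed genes matched on autosomes in 12 lists, 39 (6.79%) had a member inside or within 10 kb, beside 4.36% of all autosomal protein-coding genes. The counts were 8 of 78 genes for fatty acid, triglyceride and cholesterol metabolism, 7 of 65 for interferon response and antigen presentation, 5 of 28 for transporters, and 5 of 51 for amino acid and one-carbon metabolism. They were 4 of 41 for carboxylesterases and related hydrolases, 4 of 66 for secreted proteins, 3 of 37 for glucose and insulin signalling, 2 of 55 for transcription factors and 1 of 50 for cytochrome P450 enzymes. None of 41 conjugation enzymes, 27 chromatin silencing genes and 35 genes of other liver cell types had one. Ugt2b37 is among these conjugation enzymes, and its site described above, 10858 bp upstream, fell just outside the limit of 10 kb. The lists were chosen with earlier results known, so no test was made.

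In lipid metabolism, Elovl6, a fatty acid elongase gene, had an intronic site at percentiles of 86.0 in C57BL/6J, 60.4 in C3H/HeJ and 54.3 in DBA/2J. Acadm, of medium-chain fatty acid oxidation, had one at 70.8 in C57BL/6J, 67.6 in DBA/2J, 50.8 in BALB/cJ and 48.6 in C3H/HeJ. Both recombinant strains had peaks at these 2 sites. At Ppara, a nuclear receptor of fatty acid catabolism, a site was called in BALB/cJ (81.0), C57BL/6J (69.2) and A/J (9.5) and in neither recombinant strain.

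In carbohydrate metabolism, Pygl and Gys2, the glycogen phosphorylase and glycogen synthase of liver, each had a site called in all inbred strains other than A/J and AKR/J. The site of Pygl ranged from 24.7 in C57BL/6J to 77.7 in C3H/HeJ, and that of Gys2 from 10.1 in DBA/2J to 64.7 in BALB/cJ. Among secreted proteins, a site upstream of Orm2, an acute-phase glycoprotein gene, which also lies within 10 kb of Orm3, stood at 82.1 in DBA/2J, 53.9 in C57BL/6J, 51.3 in BALB/cJ and 47.0 in C3H/HeJ. Hp, encoding haptoglobin, had one at 70.3 in C57BL/6J and 38.3 to 51.3 in AKR/J, BALB/cJ, CBA/J and DBA/2J. At Tat, a tyrosine-degrading enzyme, the site stood at 71.8 in DBA/2J, 37.0 in C57BL/6J and 23.3 in A/J. Of these 5 sites only that of Tat had a peak in A/J.

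Motifs of liver factors occurred at shares close to those of all union sites. In windows of 300 bp around the midpoint, on either strand, the FOXA motif TGTTTAC occurred in 4.92% of members (3.70 to 6.40) and 4.60% of all autosomal union sites, and the C/EBP motif TTGCNNAA in 13.9% (11.9 to 16.1) and 12.6%. The HNF4 motif CAAAGTCCA was found in 1.42% and 1.51%, the HNF1 motif GTTAATNAT in 1.51% and 1.21%, and the STAT motif TTCNNNGAA in 8.80% and 7.54%. Lower shares were found for the ETS motif CCGGAAG, with 3.12% (2.16 to 4.36) and 5.72%, and the CTCF motif AGGGGGC, with 6.15% (4.78 to 7.77) and 9.80%. At the other sites the shares were 3.39% for ETS, within the interval of the members, and 8.83% for CTCF. The low ETS share was therefore not particular to the members. At A/J with DBA/2J, the FOXA and HNF4 motifs were found at 0 of 86 members (upper 95% limit 4.20%). For HNF4 this limit lies above the 1.51% of all union sites, so the 0 does not set these members apart. The CTCF motif was found at 12 of them (14.0%, 7.42 to 23.1). Their median GC content was 59.9%, and no motif share was adjusted for GC content. A match is a description of these letters and not a bound site.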

How the data were processed

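FAIRE-seq was made from 18 livers of male mice, 2 for each of 9 strains. The authors aligned reads with bowtie1 to mm9 carrying the SNPs of the strain, kept uniquely placed proper pairs without PCR duplicates, called peaks per library with F-seq (feature length 400 bp) and combined the 2 replicates with IDR. For BXH2/TyJ and BXH19/TyJ, mm9 and the C3H/HeJ genome were both used, but the sources do not tell which one each list came from. The submitters' processing notes name Bowtie, DESeq and mm9, with versions not given in the sources used here. Positions and a signal value make up the deposited lists, the value being a score that F-seq wrote and that the authors do not describe as comparable across lists, so it was ranked within each list. They held 26769 to 30613 peaks per inbred strain, 30371 for BXH2/TyJ and 30499 for BXH19/TyJ. The authors merged the lists, tested quantile-normalized reads with DESeq and deposited the top and bottom 5% as variable and common sites, whose other values are positions only. Read depths were not used here.

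The union was recomputed and a call needed 1 bp or more shared by the site and a peak. Every call at a member came from a peak that covered at least 10% of the site. Genes came from GENCODE M1 on NCBIM37 (mm9). Copies were found with blastn 2.17.0 (at least 90% identity over 150 bp, expect value 1e-20). An alignment of any part of a site was counted. Shares have 95% Clopper-Pearson intervals, which cover counting error only. Named sites were the 3 with the highest mean percentile per combination within 50 kb of a gene start (1 per gene, passing over gene models without a named symbol), runs of 3 or more, the 25 listed genes and 8 genes with the most members, the strongest sites called in 1 parent, and the largest groups of similar sequence, of which a part is given. The 5 strongest members of the largest group and the dense stretches of chromosomes 8 and 17 were chosen after their values were seen. The members and gene lists were chosen with earlier results of these data known. Alternatives were other overlaps, shorter lists, strains left out, other distances and members without repeated sequence, each with p-values adjusted over the same 15 tests. The peak calls and both exact tests were tested on simulated data. The software was samtools 1.23.1 and Python 3.11.15 (matplotlib 3.10.9, pysam 0.24.0, scipy 1.17.1, pandas 2.3.3, numpy 2.4.6). A listed gene and a sequence are not reported here.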

Additional observations from a re-analysis of the deposited data

Results flagged for a closer look

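The difference between the recombinant strains depended on the parental state, with a difference of 37.5 percentage points. Among members with a peak in only 1 recombinant strain, the share held by BXH2/TyJ was 78.4% of 204 where C57BL/6J and not C3H/HeJ was called, and 41.0% of 83 where C3H/HeJ and not C57BL/6J was called. On X and Y, which were left out of the comparisons, 15 variable sites were called in 2 to 5 inbred strains, and 14 of them had a further copy in mm9.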

How the results depend on the processing

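The number of members was 817 to 1199 under other overlaps, lists of the 20000 strongest peaks, X and Y kept, and each inbred strain left out in turn, against 1057. A/J with DBA/2J stayed the most frequent combination, with 5.33% of members where a peak had to cover 50% of the site and 6.12% in the shorter lists, against 8.14%. The share of neighbours with the same combination was 34.3% within 10 kb, 13.4% within 1 Mb and 15.7% without members that have another copy, against 20.5% within 100 kb. With p-values adjusted over the same 15 tests, the difference between parental states in BXH2/TyJ lost its call without repeated sequence (9.81 points, adjusted p = 0.0553, Fisher's exact test) and passed in the other 4 alternatives. That in BXH19/TyJ and that between the recombinant strains at C57BL/6J-only members kept their direction and call in all alternatives run for them. Comparisons without a call changed in single alternatives. In the shorter lists BXH2/TyJ alone had 8 C3H/HeJ-only members and BXH19/TyJ alone 44 (exact binomial test, adjusted p = 5.05e-07). At members of both parents they had 4 and 19 (exact binomial test, adjusted p = 0.00279). With 50% of the site covered, BXH2/TyJ had 41.2% of C3H/HeJ-only members and 24.4% of members of neither parent (Fisher's exact test, adjusted p = 7.1e-05). Each stayed uncalled in the remaining alternatives. Leaving out the largest group of similar sequence, and 1 member per 1 Mb for the comparison of the recombinant strains, were chosen after seeing the data. Median GC content was 53.3% in windows of 300 bp, against 52.4%. A transcript start lay within 500 bp of 13.9% of members and 10.98% of the other sites, within 5 kb of 31.1% and 31.5%, and within 1 kb of 17.1% and 14.5%, so that the order turned at 5 kb. A further copy existed for 21.0% of members at 95% identity and for 18.6% over at least 250 bp, against 24.9%. Among these alternatives the BXH2/TyJ difference ran between 9.81 points without repeated sequence and 29.55 points in the shorter lists, and the BXH19/TyJ difference between -18.0 and -13.2 points, against 16.8 and -19.4 points. The cause of these changes was not tested. No paired analysis was possible because each list combines the replicates of its strain. Read depths were not used here, and a missing call can be a peak just under a threshold.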
